A study of Mus musculus with 12 samples.

Results

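The response of wild-type scWAT (subcutaneous white adipose tissue) to cold was described from 6 RNA-seq libraries of the 12 in the series, chosen by their labels alone: 3 from wild-type (*Jmjd1a* +/+) mice kept at 8°C and 3 from wild-type mice kept at 30°C. All genes of these libraries were examined, and 16540 of the 55401 genes counted had enough reads for a test. The mice were 16-week-old females that spent 1 week at 30°C and then 1 week at 8°C or a further week at 30°C. The other 6 libraries came from *Jmjd1a* HY/HY mice under the same conditions, which carry in every cell an allele encoding a JMJD1A (*Kdm3a*) histone demethylase without activity. They entered the fit to estimate the spread between libraries of one group and to test where the cold response of the genotypes differed. They also took part in the scaling and in the choice of genes with enough reads. With the 6 wild-type libraries alone 15745 genes were tested. The read pairs counted on genes numbered from 18305586 to 23652011 per wild-type library at 30°C and from 14722081 to 17955584 at 8°C, and nothing in the labels says more of the replicates than that they were separate samples.

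At 30°C a mouse needs little heat beyond that of its resting metabolism, and the adipocytes of scWAT mostly store triglyceride. In the cold, sympathetic nerves release noradrenaline into the fat, beta-adrenergic receptors raise cAMP, and stored triglyceride is broken down to fatty acids. Some adipocytes of scWAT then become beige: they fill with mitochondria and make UCP1, which lets protons back across the inner mitochondrial membrane so that fuel oxidation yields heat instead of ATP. Such tissue takes up and burns fatty acids and glucose while it also makes new fat. scWAT of female mice holds mammary ducts, lymph node, vessels and nerves besides adipocytes, so that in RNA from the whole pad fewer cells of a type and less RNA per cell cannot be told apart.

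Levels are given as CPM, counts per 1000000 counted pairs scaled by the TMM method, always in the order of replicates 1, 2 and 3 of a temperature, which were not treated as paired between temperatures. A gene was called when the quasi-likelihood test of edgeR gave a Benjamini-Hochberg adjusted p under 0.05 and a fold above 1.5 or below 0.67. By this rule 1707 genes, 10.3% of those tested, rose at 8°C and 1147 genes, 6.93%, fell, with a median log2 fold change of -0.07 over all genes tested. Of the called genes 59.8% were higher. When libraries were scaled by their totals instead, 20.3% of the called genes were higher, since the median gene then moved by -0.34 on the log2 scale, and no gene was called in opposite directions under the 2 scalings. The medians of 19 of the 62 gene lists changed sign under this or another alternative. Of lists named below these were creatine, calcium, ketone bodies, cholesterol, cAMP turnover, insulin, transcription factors, stress responses, heat shock, antioxidants, hypoxia, collagens, matrix, adipokines, lymph node, neutrophils and mast cells, mature adipocytes, serine and coenzyme A. For these the counts or sums and not the medians are described. In 7182 genes (43.4%) the 3 libraries of one temperature all lay above the 3 of the other. Among called genes 300 rose and 51 fell by more than 4-fold.

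Replicate 2 at 30°C stood apart in its content of other tissues. The 18 skeletal muscle markers counted, of which 14 were tested, summed to 60.64, 2132 and 104.6 CPM at 30°C and 81.75, 97.24 and 100.8 CPM at 8°C. The high value was thus that of this 1 library. The 21 mammary epithelium markers counted, of which 17 were tested, summed to 3597, 5165 and 2887 CPM at 30°C and 2034, 2219 and 2092 CPM at 8°C. *Acta1*, the actin of skeletal muscle, was at 5.89, 285 and 10.7 CPM at 30°C and 0.892, 2.11 and 1.99 CPM at 8°C, and *Ckm*, the muscle creatine kinase, at 0.0453, 197 and 1.22 CPM at 30°C and 0.0743, 0.679 and 0.449 CPM at 8°C. The casein gene *Csn2* and the transcription factor *Zic1*, which marks the classical brown depot, had too few reads for a test. Without this library 1356 of 16808 genes tested rose (8.07%) and 545 fell (3.24%), and 1291 of the rises and 473 of the falls were called in both fits. The drop in calls was not particular to this library: leaving out replicate 2 or 3 at 8°C left 556 and 523 falls. It also depended on the fit, since all these fits kept the *Jmjd1a* HY/HY libraries. In the 5 other wild-type libraries alone, with 15951 genes tested, 1668 genes rose and 875 fell. There 1481 of the rises and 666 of the falls kept their call. Mature adipocyte markers summed to 27920, 32320 and 51740 CPM at 30°C and 37820, 45280 and 47580 CPM at 8°C, groups that overlap. Counts over gene lists below are given with and without replicate 2 at 30°C, "without the library with muscle RNA" for short. They are to be read against the shares of all genes tested, 10.3% higher and 6.93% lower, and 8.07% and 3.24% without this library.

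**Figure D1:**
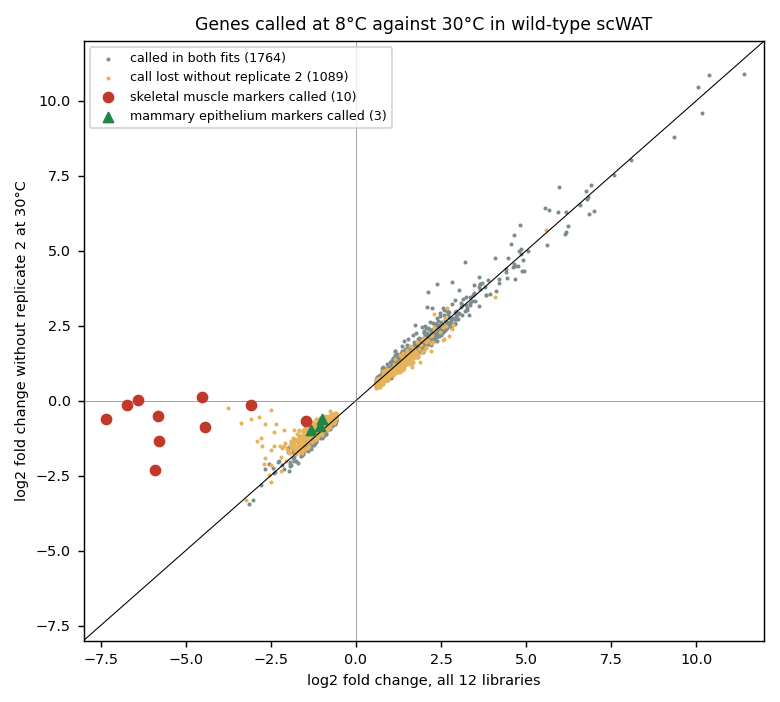
Log2 fold change at 8°C against 30°C in wild-type scWAT with all 12 libraries (x axis) and without replicate 2 at 30°C (y axis), 1 point per called gene. The 10 called skeletal muscle markers tested in both fits (red) lie far from the diagonal, most of them near 0 on the y axis, while rises lie along it.

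The start regions of 9 genes are shown because their genes moved together and their promoters share short motifs. Sequences are those of RefSeq (GRCm38.p6, the mm10 build), written 5′ to 3′ on the gene's strand and ending at the base before the annotated start, with the motif in capitals on either strand. The motifs were chosen after the values were seen. The first 3 belong to strongly induced thermogenic genes and hold TGACG, the core of the cAMP response element, which in *Dio2* extends to TGACGTCA and overlaps the core on the other strand. This core was found in 29.7% of the 1172 promoters of genes that rose and in 29.1% of the 11138 promoters of all genes tested that have one in the table, over 250 bases and on both strands, so the sequences show where the letters lie and no more.
*Ucp1*, chr8:83290098-83290347, plus strand: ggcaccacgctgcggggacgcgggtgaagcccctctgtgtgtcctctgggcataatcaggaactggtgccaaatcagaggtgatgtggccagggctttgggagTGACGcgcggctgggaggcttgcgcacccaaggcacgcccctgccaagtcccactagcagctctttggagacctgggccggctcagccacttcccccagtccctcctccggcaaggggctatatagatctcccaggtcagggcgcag
*Fabp3*, chr4:130308488-130308737, plus strand: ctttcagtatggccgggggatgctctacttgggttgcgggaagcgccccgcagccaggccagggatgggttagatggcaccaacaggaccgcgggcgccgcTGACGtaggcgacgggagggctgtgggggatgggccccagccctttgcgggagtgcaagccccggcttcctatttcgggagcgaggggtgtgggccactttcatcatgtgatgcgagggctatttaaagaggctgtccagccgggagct
*Dio2*, chr12:90739039-90739288, minus strand: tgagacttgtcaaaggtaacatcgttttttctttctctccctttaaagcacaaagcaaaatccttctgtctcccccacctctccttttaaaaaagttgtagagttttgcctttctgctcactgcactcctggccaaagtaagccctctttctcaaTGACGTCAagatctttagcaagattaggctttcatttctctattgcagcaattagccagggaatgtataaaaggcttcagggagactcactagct
In 3 cell cycle genes the last 150 bases hold CCAAT or its complement ATTGG. The box CCAAT was found in 26 of 31 promoters of the proliferation list (83.9%), in 40.1% of all and in 42.3% of genes that rose. The share was no smaller in lists that did not rise as a group, with 85.0% in cholesterol genes, 87.5% in serine and sulfur amino acid enzymes and 7 of 7 promoters of MHC class II, so nothing about the cold response is read from it.
*Cdk1*, chr10:69352913-69353062, minus strand: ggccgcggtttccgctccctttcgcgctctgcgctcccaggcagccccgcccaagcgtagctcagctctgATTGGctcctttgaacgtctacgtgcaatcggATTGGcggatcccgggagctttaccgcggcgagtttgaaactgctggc
*Top2a*, chr11:99024190-99024339, minus strand: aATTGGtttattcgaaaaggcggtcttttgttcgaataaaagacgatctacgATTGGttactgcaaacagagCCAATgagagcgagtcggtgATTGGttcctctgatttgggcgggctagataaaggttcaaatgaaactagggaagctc
*Ccnb1*, chr13:100786487-100786636, minus strand: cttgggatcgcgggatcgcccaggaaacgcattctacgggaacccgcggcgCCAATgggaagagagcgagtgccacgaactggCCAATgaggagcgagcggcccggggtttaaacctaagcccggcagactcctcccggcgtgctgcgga
In 3 genes of mitochondrial protein import the last 60 bases hold CCGGAAG or its complement CTTCCGG, the site of ETS factors such as GABPA. It was found in 17 of 38 promoters of the import list (44.7%), 16 of 44 of the list of mitochondrial DNA and translation factors (36.4%), 17 of 67 of the mitochondrial ribosome (25.4%) and 14.7% of all. Among called genes the share was 16.6% in those that rose and 9% in those that fell. It was 28.8% in cytosolic ribosomal proteins, most of which were lower at 8°C. In OXPHOS subunits, fatty acid oxidation and the TCA cycle, lists that rose, it was 19.0%, 10% and 8.33%. Among the lists named here the share thus did not follow the direction of the list, and nothing about the cold response is read from it.
*Timm10*, chr2:84826961-84827020, plus strand: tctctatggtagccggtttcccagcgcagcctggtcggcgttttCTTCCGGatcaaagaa
*Timm23*, chr14:32201892-32201951, minus strand: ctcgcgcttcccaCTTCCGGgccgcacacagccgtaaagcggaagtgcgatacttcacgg
*Mtx2*, chr2:74825752-74825811, plus strand: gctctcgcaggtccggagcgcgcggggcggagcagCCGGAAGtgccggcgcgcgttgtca

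The largest rises were of genes with few reads at 30°C. Beside *Ucp1*, *Fabp3* and *Elovl3*, whose log2 fold changes were 11.41, 10.38 and 10.06, the 10 largest included the following. *Slc25a34* (ENSMUSG00000040740.7, chromosome 4, 141618819 to 141623891), a mitochondrial carrier whose substrate is not settled, was at 0.181, 0.541 and 0.531 CPM at 30°C and 54.5, 45.4 and 55.1 CPM at 8°C (log2 fold change 6.92 ± 0.69 (SE), adjusted p = 6.08e-05). *Kng2* (ENSMUSG00000060459.14, chromosome 16, 22985852 to 23029101), a kininogen from which kinins are cut, was at 0.317, 0.325 and 0.372 CPM at 30°C and 43.3, 37.3 and 34.6 CPM at 8°C (log2 fold change 6.81 ± 0.53 (SE), adjusted p = 1.78e-05). *Cpn2*, the regulatory subunit of the carboxypeptidase N that inactivates kinins, was at 0.272, 0.0722 and 0.106 CPM at 30°C and 11.9, 12.7 and 9.75 CPM at 8°C (log2 fold change 6.22 ± 0.54 (SE), adjusted p = 3.26e-05). In all 3 every library at 8°C lay far above every library at 30°C.

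*Cox7a1*, the heart and muscle form of a cytochrome c oxidase subunit, was at 4.08, 7.61 and 8.03 CPM at 30°C and 464, 493 and 468 CPM at 8°C (log2 fold change 6.17 ± 0.47 (SE), adjusted p = 1.71e-05). *Slc27a2*, a fatty acid transporter and very long chain acyl-CoA synthetase, was at 1.81, 0.216 and 1.17 CPM at 30°C and 58.3, 67.5 and 97.3 CPM at 8°C (log2 fold change 6.17 ± 0.78 (SE), adjusted p = 0.00024). These 2 groups of libraries did not overlap either. The kinase *Sgk2* and the developmental gene *Mab21l2* had 3 counts or fewer in every library at 30°C, and set against 3 counts per library they were at least 30.6-fold and 11.03-fold higher at 8°C. All 10 kept their call without the library with muscle RNA.

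Of the 32 thermogenic and beige genes tested, 23 rose and 3 fell (median log2 fold change 2.92, against 10.3% and 6.93% of all genes), and 23 and 1 did so without the library with muscle RNA. *Ucp1*, *Fabp3* and *Elovl3* led the list. *Otop1*, a proton channel of thermogenic adipocytes, was at 3.72, 3.75 and 5.31 CPM at 30°C and 111, 105 and 104 CPM at 8°C (log2 fold change 4.65 ± 0.49 (SE), adjusted p = 8.08e-05), and *Acot11*, a thioesterase first found as a gene induced by cold in brown fat, at 7.07, 6.64 and 7.76 CPM at 30°C and 249.8, 255 and 208 CPM at 8°C (log2 fold change 5.05 ± 0.57 (SE), adjusted p = 0.000123). *Dio2*, which turns thyroxine into the active thyroid hormone, had a log2 fold change of 5.95 ± 0.93. The potassium channel *Kcnk3* rose by 2.62 and the nuclear receptor *Ppara*, which drives genes of fatty acid oxidation, by 2.99.

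Some members known for beige identity were not called. *Prdm16*, a coregulator needed for beige and brown fate, was at 9.16, 9.06 and 11.2 CPM at 30°C and 12.9, 12.1 and 12.2 CPM at 8°C (log2 fold change 0.34 ± 0.24 (SE), adjusted p = 0.325), which was not called. *Ebf2*, which opens brown fat enhancers, was at 13.1, 15.6 and 15.5 CPM at 30°C and 15.2, 15.8 and 19.8 CPM at 8°C (log2 fold change 0.20 ± 0.21 (SE), adjusted p = 0.523), with overlapping groups. The marker *Tnfrsf9* and the nuclear receptor *Esrrg* were not called either, with adjusted p of 0.109 and 0.272. *Cited1*, used as a beige marker, was lower at 8°C and its groups overlapped (83.7, 152 and 37.9 CPM at 30°C and 30.8, 25.8 and 37.98 CPM at 8°C), and its call was lost without the library with muscle RNA (adjusted p = 0.13). The coactivators *Ppargc1a* and *Ppargc1b* rose by 2.72 and 1.52 on the log2 scale.

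**Figure D2:**
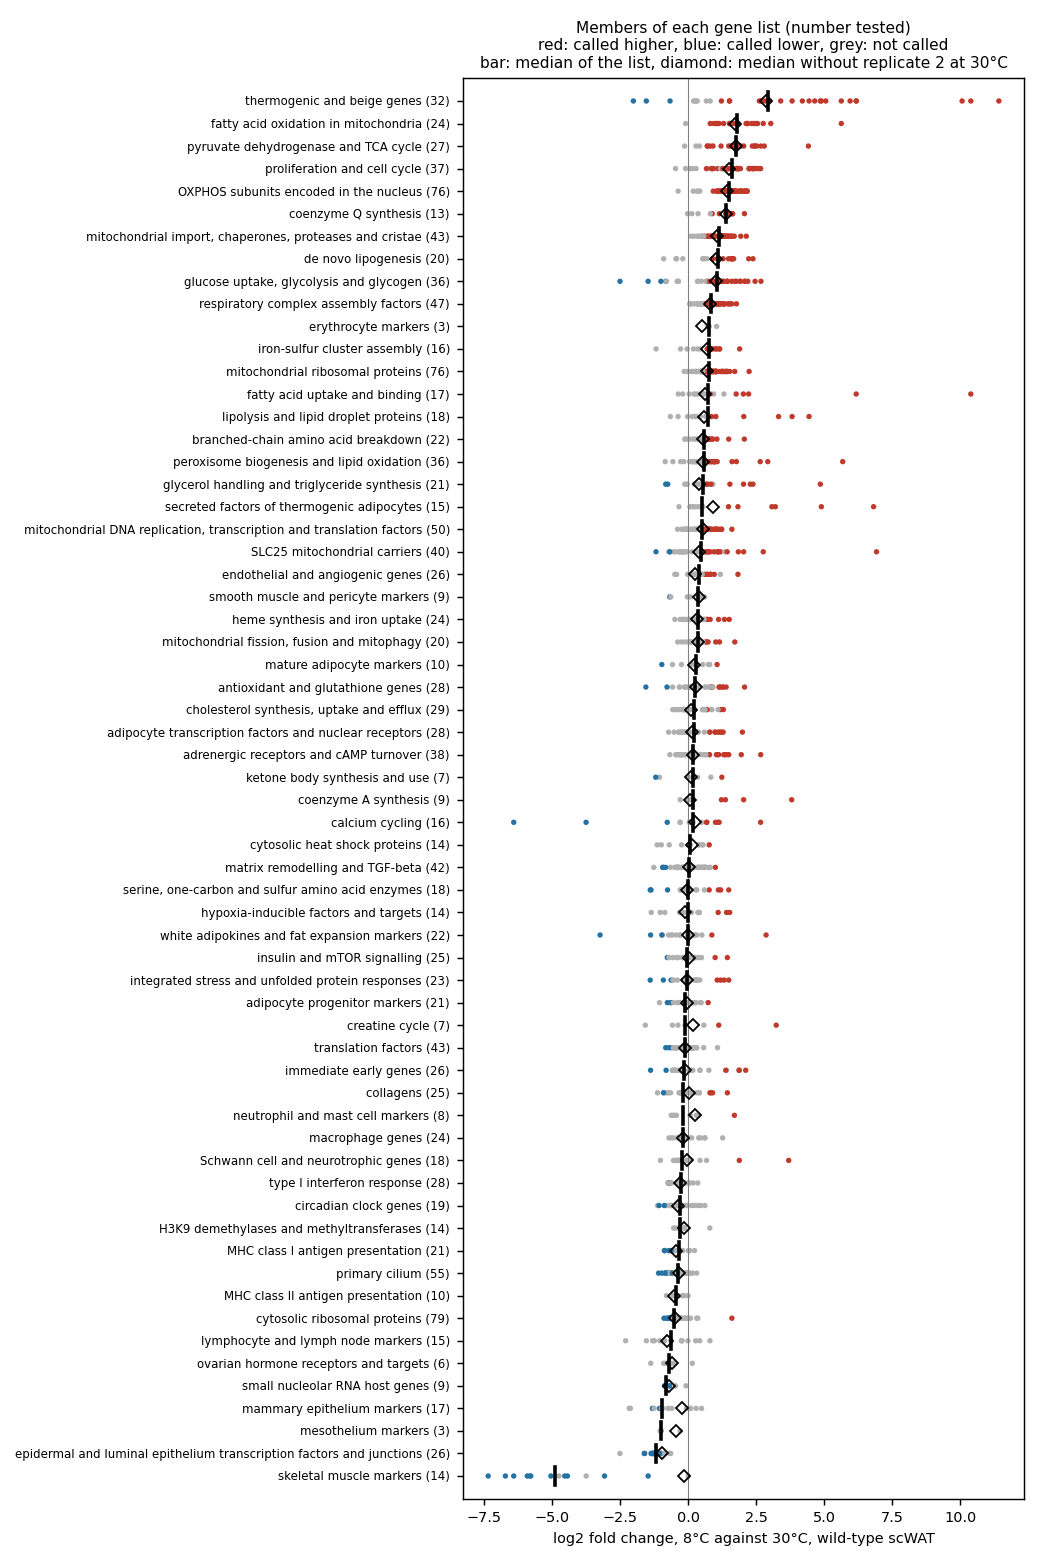
Log2 fold change at 8°C against 30°C of every tested member of each gene list in wild-type scWAT, with the number tested in brackets. Fatty acid oxidation, the TCA cycle, OXPHOS subunits and mitochondrial import have nearly all members to the right of 0, SLC25 carriers lie on both sides, lists of cytosolic ribosomes, cilium and epithelium have most to the left, and the skeletal muscle median moves to near 0 without replicate 2 at 30°C.

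Genes for the burning of fatty acids rose at almost every step. Of 24 genes of mitochondrial fatty acid oxidation, 23 rose and none fell (median 1.80), and 20 rose without the library with muscle RNA. The carnitine shuttle brings acyl groups into the matrix, and its carrier *Slc25a20* was at 67.8, 55.2 and 104 CPM at 30°C and 462, 501 and 572 CPM at 8°C (log2 fold change 2.76 ± 0.25 (SE), adjusted p = 4.23e-05). *Acaa2*, which cuts off acetyl-CoA in the last step of the spiral, was at 119, 110.4 and 172 CPM at 30°C and 1114, 1119.9 and 1055 CPM at 8°C (log2 fold change 3.03 ± 0.23 (SE), adjusted p = 1.71e-05). *Etfdh*, which passes the electrons on to coenzyme Q, rose by 2.55 and *Acadvl*, the first dehydrogenase for long chains, by 2.51. The exception was the liver form of the entry enzyme, *Cpt1a*, at 64.1, 65.5 and 45.2 CPM at 30°C and 51.7, 59.1 and 53.3 CPM at 8°C (log2 fold change -0.09 ± 0.24 (SE), adjusted p = 0.813), beside the muscle form *Cpt1b*, which rose by 5.62.

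Peroxisomes shorten very long chains before mitochondria take them up. Here 17 of 36 genes rose and none fell (median 0.58), and 12 rose without the library with muscle RNA. The rises were mainly of enzymes: *Ehhadh*, the bifunctional enzyme, was at 27.6, 32.3 and 32.2 CPM at 30°C and 215, 209 and 275 CPM at 8°C (log2 fold change 2.92 ± 0.21 (SE), adjusted p = 1.68e-05), the thiolase *Acaa1b* rose by 2.65 and the transporter *Abcd3* by 1.77. *Acot12*, a cytosolic acetyl-CoA thioesterase, had a log2 fold change of 5.68 ± 0.49 and no more than 3 counts in any library at 30°C, so that it was at least 18.8-fold higher. Of the proteins that build peroxisomes, *Pex14* rose by 0.95, while *Pex11a*, which divides them, was not called (0.43, adjusted p = 0.0646).

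Genes of pyruvate and acetyl-CoA oxidation rose as widely, 24 of 27 with none lower (median 1.76), and 21 rose without the library with muscle RNA. The list summed to 4995, 5121 and 7150 CPM at 30°C and 19620, 21240 and 21690 CPM at 8°C. *Idh3a* (ENSMUSG00000032279.11, chromosome 9, 54586511 to 54604662), the catalytic subunit of the NAD-dependent isocitrate dehydrogenase, was at 154, 154 and 193 CPM at 30°C and 968, 1029.5 and 1195 CPM at 8°C (log2 fold change 2.67 ± 0.24 (SE), adjusted p = 4.23e-05). *Suclg1*, shared by both succinyl-CoA ligases, was at 84.3, 81.3 and 114 CPM at 30°C and 658, 676 and 605 CPM at 8°C (log2 fold change 2.80 ± 0.18 (SE), adjusted p = 1.21e-05). Its partner for ATP, *Sucla2*, rose by 2.45, while its partner for GTP, *Suclg2*, was not called (0.41, adjusted p = 0.132).

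Both pyruvate carriers of the inner membrane rose, *Mpc1* by 2.36 and *Mpc2* by 2.52 on the log2 scale. At the same time *Pdk4*, the kinase that switches pyruvate dehydrogenase off, had the largest rise of the list, at 29.9, 29.8 and 52.4 CPM at 30°C and 568, 843 and 982 CPM at 8°C (log2 fold change 4.42 ± 0.48 (SE), adjusted p = 9.26e-05). Its relatives *Pdk2* and *Pdk1* rose by 1.21 and 0.70, the latter without a call when the library with muscle RNA was left out. The phosphatase *Pdp1*, which switches the enzyme on, was not called (0.29, adjusted p = 0.176).

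Most genes of glucose use rose. Of 36 genes of glucose uptake, glycolysis and glycogen, 23 rose and 4 fell (median 1.05), and 19 and 1 did so without the library with muscle RNA. *Ldhb*, the lactate dehydrogenase subunit of oxidative tissues, was at 64.5, 78.5 and 111 CPM at 30°C and 472, 458 and 466 CPM at 8°C (log2 fold change 2.46 ± 0.25 (SE), adjusted p = 6.35e-05), and *Slc16a1*, a monocarboxylate transporter that carries lactate, at 25.6, 18.7 and 33.7 CPM at 30°C and 182, 157 and 159 CPM at 8°C (log2 fold change 2.68 ± 0.37 (SE), adjusted p = 0.000502). In both genes the groups were apart, with all 3 libraries at 8°C higher.

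Of the glycogen enzymes the liver forms rose, with *Gys2*, glycogen synthase, at 20.4, 23.1 and 37.04 CPM at 30°C and 118, 127 and 123 CPM at 8°C (log2 fold change 2.19 ± 0.32 (SE), adjusted p = 0.000678) and *Pygl*, the phosphorylase, higher by 1.45. The muscle phosphorylase *Pygm* was at 3.94, 61.4 and 6.64 CPM at 30°C and 4.09, 5.51 and 3.21 CPM at 8°C, so its fall was that of the library with muscle RNA and was lost without it (adjusted p = 0.496). *Eno3*, the muscle enolase, was lower with this library (-1.47) and without it (-0.67, adjusted p = 0.0309), while the general form *Eno1* rose by 2.08. Of the glucose transporters, the insulin-dependent *Slc2a4* was at 267, 209.7 and 268 CPM at 30°C and 465, 469 and 467 CPM at 8°C and the basal *Slc2a1* at 38.5, 61.6 and 39.2 CPM at 30°C and 21.4, 30.2 and 27.6 CPM at 8°C. They were called higher and lower with all libraries, and neither was called without the library with muscle RNA (adjusted p = 0.0737 and 0.138).

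A gene best known from muscle, named after its values were seen, also rose. *Fbp2*, the muscle fructose bisphosphatase, was at 1.09, 1.52 and 1.22 CPM at 30°C and 14.3, 18.3 and 15.3 CPM at 8°C (log2 fold change 3.63 ± 0.27 (SE), adjusted p = 1.71e-05).

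Genes of fat synthesis rose together with those of fat oxidation. Of 20 genes of de novo lipogenesis, 12 rose and none fell (median 1.08), 10 without the library with muscle RNA, and the list summed to 29650, 17020 and 30410 CPM at 30°C and 76240, 77040 and 68570 CPM at 8°C. *Fasn*, the fatty acid synthase, was at 5088, 4163 and 6033 CPM at 30°C and 14632, 14171 and 13931 CPM at 8°C (log2 fold change 1.48 ± 0.27 (SE), adjusted p = 0.00283). *Elovl6*, which extends palmitate, was at 229, 168 and 286 CPM at 30°C and 1296, 1444 and 815 CPM at 8°C (log2 fold change 2.38 ± 0.40 (SE), adjusted p = 0.00169), and *Me1*, a source of NADPH, at 587, 794 and 863 CPM at 30°C and 3804, 3625 and 3044 CPM at 8°C (log2 fold change 2.22 ± 0.34 (SE), adjusted p = 0.000888). *Acly*, which makes cytosolic acetyl-CoA from citrate, was called higher (1.63, adjusted p = 0.0266) but lost its call when any one of 4 wild-type libraries was left out, the library with muscle RNA among them (adjusted p = 0.0966). The transcription factors above them were not called: *Srebf1* was at 726, 457 and 653 CPM at 30°C and 505, 409.9 and 429 CPM at 8°C (log2 fold change -0.45 ± 0.30 (SE), adjusted p = 0.297), and neither *Mlxipl* nor *Nr1h3* passed the test (0.53, adjusted p = 0.304 and 0.59, adjusted p = 0.114).

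**Figure D3:**
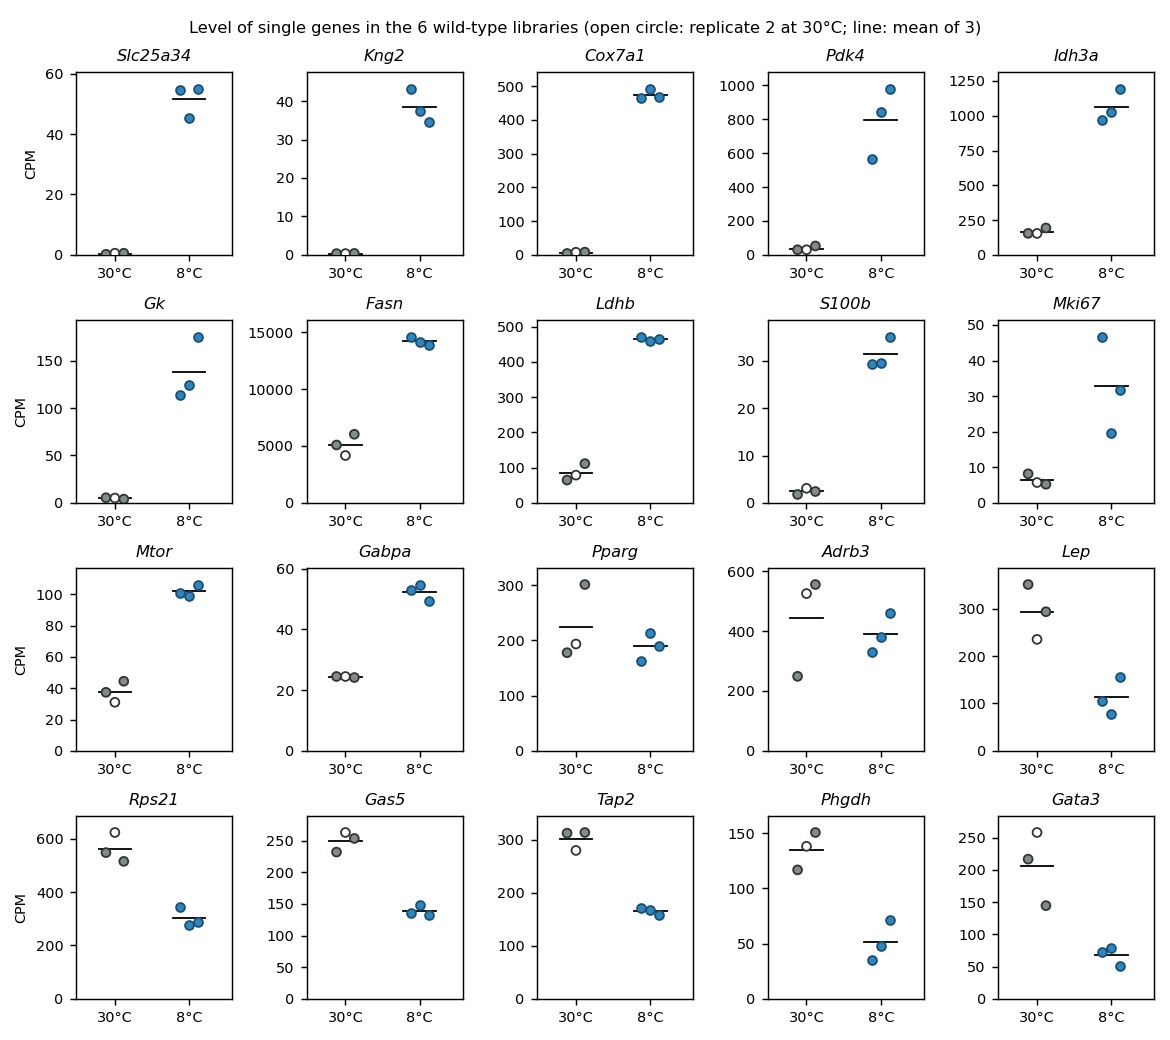
CPM of 20 genes in the 6 wild-type libraries, 1 panel per gene, with each library as a point, a line at the mean of 3 and replicate 2 at 30°C as an open circle. The groups do not overlap except for *Pparg* and *Adrb3*. The top row holds genes that rose and the bottom row genes that fell.

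Glycerol is the backbone to which fatty acids are joined again. *Gk*, glycerol kinase, which white adipocytes hardly make, was at 5.35, 5.02 and 3.88 CPM at 30°C and 114, 124 and 176 CPM at 8°C (log2 fold change 4.85 ± 0.31 (SE), adjusted p = 1.21e-05). *Gpd1*, which makes glycerol 3-phosphate from a glycolytic intermediate, was at 1360.3, 937 and 1564 CPM at 30°C and 6504, 7221 and 6375 CPM at 8°C (log2 fold change 2.38 ± 0.34 (SE), adjusted p = 0.000557), and its mitochondrial partner *Gpd2* rose by 2.28. Of the list of 21 genes, 8 rose and 2 fell (median 0.55), and 5 rises and no fall remained called without the library with muscle RNA. These included *Agpat2*, the acyltransferase of adipocytes (2.03), and *Agpat3* (1.53), while the last enzymes *Dgat1* and *Dgat2* were not called (0.55 and 0.45).

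Of 18 genes of lipolysis and lipid droplets 8 rose and none fell, and *Cidea*, *Plin5*, *Cideb*, *Plin2* and *Ddhd2* did so without the library with muscle RNA. *Plin5*, which ties droplets to mitochondria, was at 8.204, 5.701 and 15.8 CPM at 30°C and 129, 137 and 148 CPM at 8°C (log2 fold change 3.82 ± 0.38 (SE), adjusted p = 6.02e-05), and *Cideb*, the CIDE protein of liver, at 0.363, 0.216 and 1.44 CPM at 30°C and 6.54, 6.49 and 6.29 CPM at 8°C (log2 fold change 3.32 ± 0.51 (SE), adjusted p = 0.000927). *Plin1*, the main coat protein of white adipocytes, and the lipases *Lipe* and *Pnpla2* were not called (0.28, adjusted p = 0.492, 0.27, adjusted p = 0.483 and 0.79, adjusted p = 0.164). *Lipe* was at 1007, 1139 and 1775 CPM at 30°C and 1293, 1625 and 1798 CPM at 8°C, so that its groups overlapped.

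For uptake, 6 of 17 genes rose, with and without the library with muscle RNA (median 0.75). Beside *Fabp3* and *Slc27a2* these were *Apoc1*, *Fabp5*, *Vldlr* and *Lmf1*. *Vldlr*, a receptor for triglyceride-rich particles, was at 38.7, 38.5 and 42.9 CPM at 30°C and 113, 139.6 and 155 CPM at 8°C (log2 fold change 1.76 ± 0.32 (SE), adjusted p = 0.0025). *Lpl*, the lipase on the vessel wall, was at 3430.4, 2730.0 and 4866 CPM at 30°C and 4699, 5644 and 5629 CPM at 8°C and was not called (log2 fold change 0.53 ± 0.34 (SE), adjusted p = 0.273), nor was *Cd36* (0.59, adjusted p = 0.155). Coenzyme A itself, to which every fatty acid is tied, is made from pantothenate by a short path, and 4 of 9 genes of a list chosen after the values were seen rose, in both fits. *Pank1*, the rate-limiting kinase, was at 8.02, 9.85 and 11.8 CPM at 30°C and 125, 146 and 143 CPM at 8°C (log2 fold change 3.80 ± 0.26 (SE), adjusted p = 1.65e-05), and the other 3 pantothenate kinase genes of the list were not called. *Coasy*, the last enzyme, rose by 1.37 and the mitochondrial coenzyme A carrier *Slc25a42* by 2.04.

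Genes for the use of other fuels moved less. Of 22 genes of branched-chain amino acid breakdown 10 rose and none fell (median 0.58), and 5 rose without the library with muscle RNA. The strongest sat at the shared end of the path, where propionyl-CoA enters the TCA cycle: *Mcee* was at 26.9, 31.9 and 36.2 CPM at 30°C and 128, 133 and 136 CPM at 8°C (log2 fold change 2.06 ± 0.15 (SE), adjusted p = 1.68e-05) and *Pcca* rose by 1.49. The branched-chain dehydrogenase subunit *Bckdha* rose by 1.06, while *Aldh6a1*, of valine breakdown, was not called (0.34, adjusted p = 0.409). Of 7 genes of ketone bodies, *Acat1* rose (1.24, adjusted p = 0.00838) and *Bdh2* was lower, the latter not without the library with muscle RNA (adjusted p = 0.126). *Oxct1*, which lets tissues burn ketone bodies, was not called (0.83, adjusted p = 0.0899).

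Of 29 cholesterol genes tested, *Pmvk*, *Nsdhl* and *Tm7sf2* were called higher and none lower, the 10.3% also seen over all genes, and *Nsdhl* was the one called without the library with muscle RNA (1.04, adjusted p = 0.0244).

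Mitochondrial genes rose beyond the respiratory subunits. For reference, 71 of 76 nuclear OXPHOS subunits rose with and without the library with muscle RNA (median 1.5). The factors that assemble the complexes followed at a smaller size, with 31 of 47 called higher and none lower (median 0.85; 29 without that library). *Cox10*, which makes the heme A of cytochrome c oxidase, rose by 1.77, *Atpaf2*, for ATP synthase, by 1.60 and *Coa7* by 1.55.

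The mitochondrial ribosome rose in 51 of 76 genes, none fell (median 0.75), and 49 rose without the library with muscle RNA. *Mrps36*, whose product has also been placed in the oxoglutarate dehydrogenase complex, led the list at 12.5, 13.3 and 18.8 CPM at 30°C and 58.4, 69.6 and 81.7 CPM at 8°C (log2 fold change 2.24 ± 0.23 (SE), adjusted p = 6.97e-05), followed by *Mrpl34* (1.71) and *Mrpl42* (1.52). Of 50 factors that copy, read and translate mitochondrial DNA, 24 rose and none fell (median 0.50; 21 without that library). *Gfm1*, an elongation factor, was at 38.4, 38.3 and 48.4 CPM at 30°C and 116, 122 and 142 CPM at 8°C (log2 fold change 1.61 ± 0.15 (SE), adjusted p = 4.35e-05), and *Polrmt*, the RNA polymerase, at 23.3, 23.7 and 25.4 CPM at 30°C and 42.95, 38.2 and 44.97 CPM at 8°C (log2 fold change 0.80 ± 0.11 (SE), adjusted p = 0.000452). *Tfam*, which packs mitochondrial DNA, was at 35.99, 36.98 and 39.6 CPM at 30°C and 47.3, 46.02 and 51.3 CPM at 8°C: its adjusted p was 0.00867 with groups that did not overlap, but its log2 fold change of 0.36 lay under the fold limit. The helicase of mitochondrial DNA, *Twnk*, was not called (-0.23, adjusted p = 0.283).

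Genes of protein import and folding mostly rose, with 34 of 43 higher and none lower in both fits (median 1.14). *Apoo* and *Micos10*, of the complex that shapes cristae, rose by 2.13 and 1.61. *Timm10*, whose promoter is shown above, was at 15.4, 14.5 and 17.8 CPM at 30°C and 50.6, 45.3 and 57.9 CPM at 8°C (log2 fold change 1.69 ± 0.23 (SE), adjusted p = 0.000368), *Timm23* rose by 1.24 and *Mtx2* by 1.49. Of 40 SLC25 carriers 16 rose and 2 fell (12 and 1 without the library with muscle RNA). *Slc25a51*, which carries NAD into mitochondria, rose by 1.84, and *Slc25a29*, a carrier of basic amino acids, fell (-1.18, adjusted p = 0.00155).

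Genes for cofactors of respiration rose in part. Of 13 genes of coenzyme Q synthesis 9 rose and none fell in both fits (median 1.38), led by the kinase-like *Coq8a* at 50.2, 56.03 and 103 CPM at 30°C and 315, 327 and 233 CPM at 8°C (log2 fold change 2.07 ± 0.36 (SE), adjusted p = 0.00196), while *Coq4* was not called (0.36, adjusted p = 0.0637). Of 16 genes of iron-sulfur clusters 10 rose and none fell, led by *Bola3* (1.89), with 9 called without the library with muscle RNA. Of 24 genes of heme and iron 6 rose and none fell (5 without it). Among them *Tmem14c*, which moves the heme precursor protoporphyrinogen, was at 81.9, 80.1 and 95.8 CPM at 30°C and 255, 224 and 256 CPM at 8°C (log2 fold change 1.51 ± 0.12 (SE), adjusted p = 2.33e-05), and *Tfrc*, the transferrin receptor, rose by 1.33. The first heme enzyme *Alas1* was not called (0.61, adjusted p = 0.243).

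Of 20 genes of mitochondrial shape and removal 6 rose and none fell (5 without the library with muscle RNA). *Mtfp1*, which promotes fission, rose by 1.71 and *Opa1*, which fuses inner membranes, by 1.15. Creatine and calcium cycling can spend ATP as heat without UCP1. Of 7 creatine genes *Phospho1*, a phosphatase, rose (0.272, 0.361 and 0.213 CPM at 30°C and 2.304, 2.56 and 3.4000 CPM at 8°C; log2 fold change 3.24 ± 0.32 (SE), adjusted p = 5.43e-05) and so did *Ckb*, creatine kinase B (1.12), in both fits, and *Alpl*, a second phosphatase, and *Gamt*, the last enzyme of creatine synthesis, were not called (0.58, adjusted p = 0.141 and -0.58, adjusted p = 0.0653). Of 16 calcium genes 6 rose in both fits, and 3 were called lower with all libraries and none without the library with muscle RNA. *Letm1*, of the inner mitochondrial membrane, was at 65.4, 66.1 and 79.5 CPM at 30°C and 430.4, 443 and 461 CPM at 8°C (log2 fold change 2.66 ± 0.17 (SE), adjusted p = 1.21e-05), and the calcium pump *Atp2a2* was at 134, 124 and 100.3 CPM at 30°C and 188, 179 and 205 CPM at 8°C (log2 fold change 0.67 ± 0.13 (SE), adjusted p = 0.00444). The muscle pump *Atp2a1* was called lower with all libraries (-6.40) and not without the library with muscle RNA (0.0042, adjusted p = 0.999).

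**Figure D4:**
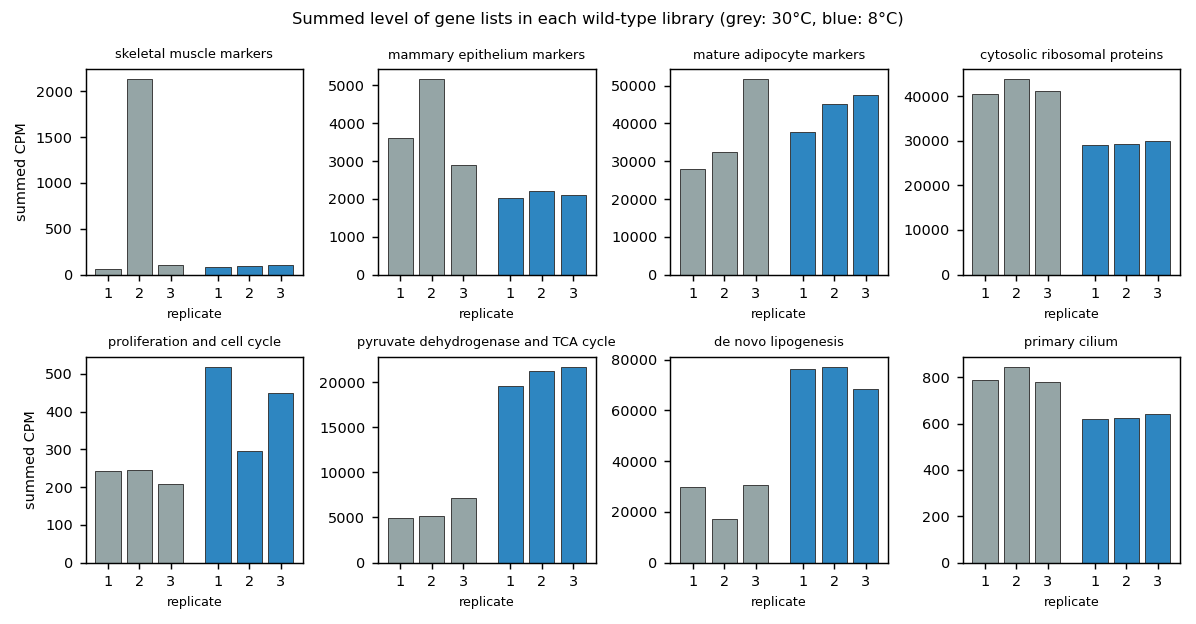
Summed CPM of 8 gene lists in each of the 6 wild-type libraries (grey 30°C, blue 8°C, bars from 0). Muscle markers stand out in replicate 2 at 30°C, the TCA cycle, lipogenesis and cell cycle lists are higher in every library at 8°C, and the cytosolic ribosome and cilium lists are lower in every library at 8°C.

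Along the path from nerve to cAMP, *Adrb3*, the beta-adrenergic receptor of adipocytes, was at 249, 526 and 556 CPM at 30°C and 331, 381 and 462 CPM at 8°C (log2 fold change -0.18 ± 0.37 (SE), adjusted p = 0.757). Of 38 genes of the path 9 rose and none fell (8 without the library with muscle RNA). *Adcy3*, an adenylyl cyclase, was at 34.5, 26.4 and 45.8 CPM at 30°C and 136, 116 and 159 CPM at 8°C (log2 fold change 1.95 ± 0.24 (SE), adjusted p = 0.000183), *Adcy10*, the soluble form, at 1.68, 1.66 and 2.13 CPM at 30°C and 15.6, 12.1 and 6.93 CPM at 8°C (log2 fold change 2.67 ± 0.51 (SE), adjusted p = 0.00356), and the G protein subunit *Gnas* and the kinase subunit *Prkaca* rose by 1.49 and 1.04. The phosphodiesterases *Pde4d* and *Pde4a*, which break cAMP down, rose by 1.36 and 1.13.

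Of 25 genes of insulin and mTOR signalling *Mtor* and its binding partner *Deptor* rose in both fits. They were 8% of the list, and 1 gene fell with all libraries (4%), against 10.3% and 6.93% of all genes. Without the library with muscle RNA 3 genes rose and none fell. *Mtor*, the kinase that couples nutrients to growth, was at 37.4, 31.03 and 44.5 CPM at 30°C and 101, 98.8 and 106 CPM at 8°C (log2 fold change 1.44 ± 0.14 (SE), adjusted p = 5.19e-05), and *Deptor*, which inhibits it, at 85.6, 90.7 and 79.3 CPM at 30°C and 172, 175 and 161 CPM at 8°C (log2 fold change 0.99 ± 0.22 (SE), adjusted p = 0.00844). *Pik3r1*, a regulatory subunit of PI3 kinase, was called lower with all libraries (-0.77, adjusted p = 0.0333) but not without the library with muscle RNA (adjusted p = 0.066). *Insr*, the insulin receptor, was not called (0.35, adjusted p = 0.0503).

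Of 28 adipocyte transcription factors and nuclear receptors 8 rose and none fell, and 4 rose without the library with muscle RNA. *Cebpb* was at 22.98, 23.9 and 23.1 CPM at 30°C and 54.8, 125 and 98.7 CPM at 8°C (log2 fold change 1.99 ± 0.29 (SE), adjusted p = 0.000597), with replicate 1 at 8°C the lowest of its group. *Esrra*, a receptor that acts with PGC-1 on mitochondrial genes, was at 57.97, 53.98 and 67.4 CPM at 30°C and 133, 139 and 146 CPM at 8°C (log2 fold change 1.22 ± 0.21 (SE), adjusted p = 0.00192), and *Gabpa*, the ETS factor whose site is shown above, at 24.5, 24.5 and 24.1 CPM at 30°C and 52.99, 54.8 and 49.3 CPM at 8°C (log2 fold change 1.10 ± 0.12 (SE), adjusted p = 7.83e-05). The fourth was *Nr4a1* (1.16). *Pparg*, the master factor of adipocytes, was at 178, 194 and 301 CPM at 30°C and 164, 214 and 189.6 CPM at 8°C (log2 fold change -0.25 ± 0.24 (SE), adjusted p = 0.483), with overlapping groups. The factor *Nrf1*, also tied to mitochondrial genes, was not called (-0.21, adjusted p = 0.233).

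Immediate early genes, a list chosen after the values were seen, had 4 of 26 higher (15.4%) and 2 lower (7.69%), against 10.3% and 6.93% of all genes. Without the library with muscle RNA 5 were higher and 2 lower, when *Egr1* was called as well. The kinase *Pim1* was at 19.4, 22.3 and 34.2 CPM at 30°C and 104, 119.6 and 104 CPM at 8°C (log2 fold change 2.11 ± 0.27 (SE), adjusted p = 0.000282), the phosphatases *Dusp1* and *Dusp6* rose by 1.87 and 1.38, and *Gadd45b*, a stress gene, fell (-1.38, adjusted p = 0.00186). *Fos* and *Jun* were not called (-0.27 and -0.31). Of 14 hypoxia genes 3 rose in both fits, and none fell with all libraries and 1 without the library with muscle RNA. *Egln1*, an oxygen-dependent hydroxylase that marks HIF for removal, was at 74.6, 74.3 and 78.4 CPM at 30°C and 203, 222 and 229.7 CPM at 8°C (log2 fold change 1.53 ± 0.13 (SE), adjusted p = 2.33e-05), and *Higd1a* and *Ankrd37* rose by 1.41 and 1.10.

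Of 28 antioxidant genes 8 rose and 2 fell (8 and 1 without the library with muscle RNA). The mitochondrial enzymes *Sod2*, *Txnrd2*, *Prdx3* and *Txn2* were among those that rose, with *Sod2*, the manganese superoxide dismutase, at 119.7, 117 and 137 CPM at 30°C and 485, 542 and 544 CPM at 8°C (log2 fold change 2.07 ± 0.18 (SE), adjusted p = 3.73e-05). The secreted *Gpx3* fell, at 3599.8, 2995 and 7200.1 CPM at 30°C and 1211, 1893 and 1601 CPM at 8°C (log2 fold change -1.55 ± 0.44 (SE), adjusted p = 0.0262), with replicate 3 the highest at 30°C. Of 23 genes of the integrated stress and unfolded protein responses 4 rose and 3 fell (4 and 2 without that library). *Xbp1*, a factor of the unfolded protein response, was at 280.2, 258 and 386 CPM at 30°C and 135, 203 and 154 CPM at 8°C (log2 fold change -0.91 ± 0.20 (SE), adjusted p = 0.00841), and *Atf5*, a factor of the mitochondrial stress response, rose by 1.32. Of 14 cytosolic heat shock genes *Hspb6* rose (0.77, adjusted p = 0.0418), 7.14% of the list against 10.3% of all genes, and none fell.

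Serine and sulfur amino acid enzymes, in a list chosen after the values were seen, moved both ways, with 4 of 18 higher and 3 lower (4 and 2 without the library with muscle RNA). *Phgdh*, the first enzyme of serine synthesis, was at 117, 138 and 151 CPM at 30°C and 34.7, 48.1 and 71.4 CPM at 8°C (log2 fold change -1.39 ± 0.31 (SE), adjusted p = 0.00847), while *Psph*, the last, was at 16, 16.6 and 21.3 CPM at 30°C and 57.7, 47.1 and 46.3 CPM at 8°C (log2 fold change 1.49 ± 0.17 (SE), adjusted p = 0.000151). *Cbs*, which leads homocysteine towards cysteine, fell (-1.36, adjusted p = 0.00816), and the mitochondrial folate enzyme *Mthfd2* rose (1.19, adjusted p = 0.0159). These 4 calls held without the library with muscle RNA.

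Of 19 clock genes none rose and 3 fell, the same number without that library. Of these *Bhlhe41*, a repressor of the clock, was at 221, 195 and 126 CPM at 30°C and 74.4, 98.7 and 85.7 CPM at 8°C (log2 fold change -1.07 ± 0.26 (SE), adjusted p = 0.0132) and *Cry2* fell by 0.63 on the log2 scale. *Per2* was at 112, 47.5 and 74.5 CPM at 30°C and 23.9, 43.5 and 40.4 CPM at 8°C and was not called (log2 fold change -1.12 ± 0.42 (SE), adjusted p = 0.0702).

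Cell division genes rose. Of 37 genes 30 were higher at 8°C and none lower (median 1.62), and 21 were higher without the library with muscle RNA. *Mki67*, present in dividing cells only, was at 8.16, 5.701 and 5.21 CPM at 30°C and 46.7, 19.6 and 31.8 CPM at 8°C (log2 fold change 2.36 ± 0.41 (SE), adjusted p = 0.00186), *Top2a* at 6.48, 3.46 and 3.56 CPM at 30°C and 31.3, 10.4 and 22.5 CPM at 8°C (log2 fold change 2.25 ± 0.42 (SE), adjusted p = 0.00314) and *Cdk1* at 5.12, 2.81 and 2.87 CPM at 30°C and 18.2, 8.68 and 14.05 CPM at 8°C (log2 fold change 1.92 ± 0.34 (SE), adjusted p = 0.00242). In all 3 replicate 1 was the highest and replicate 2 the lowest at 8°C, and groups did not overlap. The helicase subunit *Mcm6* and the clamp *Pcna*, which act in DNA synthesis, were not called (-0.46, adjusted p = 0.365 and 0.16, adjusted p = 0.408), whereas the mitotic genes *Bub1* and *Ccnb1* rose by 2.66 and 2.53. Which cells divided cannot be read from the whole pad.

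Genes of vessels rose in part: 7 of 26 were higher and none lower, but *Kdr*, the main VEGF receptor, was the one called without the library with muscle RNA (109.7, 99.7 and 128 CPM at 30°C and 258, 192 and 150.2 CPM at 8°C; log2 fold change 0.83 ± 0.19 (SE), adjusted p = 0.00939). *Pecam1* and *Cdh5*, junction proteins of endothelium, had adjusted p of 0.0225 and 0.0198 with all libraries and 0.0733 and 0.0638 without it. *Vegfa* lay under the fold limit (0.52, adjusted p = 0.0196).

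Factors that thermogenic adipocytes secrete rose in 6 of 15 genes, 5 without the library with muscle RNA, and none fell. *Kng2*, described above, had the largest rise of this list (6.81). *Bmp8b*, which makes fat more responsive to nerves, was at 1.09, 0.541 and 0.691 CPM at 30°C and 7.51, 4.07 and 9.75 CPM at 8°C (log2 fold change 3.20 ± 0.54 (SE), adjusted p = 0.00173), and *Fndc5*, the precursor of irisin, at 1.95, 2.02 and 1.75 CPM at 30°C and 21.03, 10.03 and 17.4 CPM at 8°C (log2 fold change 3.08 ± 0.35 (SE), adjusted p = 0.000125). *Pm20d1*, which makes N-acyl amino acids, rose by 1.48. *Fgf21* was at 0.227, 0.0361 and 0.266 CPM at 30°C and 1.04, 8.75 and 5.45 CPM at 8°C (log2 fold change 4.89 ± 0.96 (SE), adjusted p = 0.00408), with replicate 1 far below the others at 8°C. *Slit2* was not called (0.54, adjusted p = 0.505). Among Schwann cell and neurotrophic genes *S100b*, a calcium-binding protein of Schwann cells that cold-exposed adipocytes also secrete, was at 1.77, 3.07 and 2.39 CPM at 30°C and 29.4, 29.6 and 35.2 CPM at 8°C (log2 fold change 3.69 ± 0.28 (SE), adjusted p = 1.71e-05). The Schwann cell factor *Sox10* was not called (-0.54, adjusted p = 0.297).

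Falls were smaller than rises. The 10 largest that held without the library with muscle RNA lay between log2 fold changes of -2.56 and -1.76, and 6 of them were under 1 CPM in every library at 8°C. *Cdhr1*, a cadherin known from photoreceptors, was at 1.45, 2.99 and 1.44 CPM at 30°C and 0.149, 0.453 and 0.385 CPM at 8°C (log2 fold change -2.56 ± 0.47 (SE), adjusted p = 0.00297). *Rec8*, a cohesin of meiosis, was at 4.08, 5.16 and 2.82 CPM at 30°C and 0.817, 0.754 and 0.898 CPM at 8°C (log2 fold change -2.28 ± 0.40 (SE), adjusted p = 0.00209), and *Ikzf4*, a zinc finger factor of T cells, at 5.48, 3.93 and 5.899 CPM at 30°C and 1.41, 1.36 and 0.7698 CPM at 8°C (log2 fold change -2.11 ± 0.36 (SE), adjusted p = 0.00164). *Tuft1*, tuftelin, was at 21.9, 43.98 and 34.3 CPM at 30°C and 10.03, 10.9 and 6.86 CPM at 8°C (log2 fold change -1.85 ± 0.40 (SE), adjusted p = 0.00676), and *Has3*, a hyaluronan synthase, was at 3.898, 1.91 and 3.35 CPM at 30°C and 0.669, 0.981 and 1.03 CPM at 8°C (log2 fold change -1.76 ± 0.34 (SE), adjusted p = 0.00379). *Masp2*, a protease of the complement system, fell (-1.91, adjusted p = 0.0115), as did *Lce6a*, *Galnt9*, *Ccdc103* and *Tnnt2*.

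The list with the most members called lower was that of cytosolic ribosomes. Of 79 ribosomal protein genes 28 fell and 1 rose (median -0.53), 14 and 0 without the library with muscle RNA, and in 71 of the 79 every library at 8°C lay below every library at 30°C (2 lay above, and 43.4% of all genes tested separated in one or the other direction). The list summed to 40550, 43830 and 41060 CPM at 30°C and 29140, 29200 and 30030 CPM at 8°C. With DESeq2 14 members fell, and with library totals 68, since most members had a log2 fold change near the limit. *Rps21* was at 548, 624 and 515 CPM at 30°C and 344, 279 and 289 CPM at 8°C (log2 fold change -0.89 ± 0.17 (SE), adjusted p = 0.00403), *Rps3a1* fell (-0.80, adjusted p = 0.00321) and *Rpl10a* fell (-0.75, adjusted p = 0.00638). Ribosomal proteins have many processed pseudogenes, and a read pair with several alignments entered no gene's count. Such pairs were 28.2% to 29.8% of all pairs at 30°C and 30.9% to 32.2% at 8°C, and their part in the fall was not tested.

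Other genes of the machinery of protein synthesis were examined in lists chosen after the values were seen. Small nucleolar RNAs guide the chemical marking of ribosomal RNA and are cut from the introns of host genes. Of 9 host genes of small nucleolar RNAs tested 7 fell and none rose (median -0.80), 6 without the library with muscle RNA. *Gas5* was at 232, 263 and 254 CPM at 30°C and 136, 148 and 133 CPM at 8°C (log2 fold change -0.85 ± 0.11 (SE), adjusted p = 0.00032), with a narrow spread in both groups. Of 43 translation factors and related genes 3 fell (6.98%, against 6.93% of all genes) and none rose, and without the library with muscle RNA 3 fell and *Eif5* rose. The falls were of *Eef1b2*, an elongation factor (-0.63, adjusted p = 0.00496), *Fau* (-0.71, adjusted p = 0.00676) and *Eef2k* (-0.82, adjusted p = 0.00351). *Eef1a1* and *Eef2* were not called (-0.43 and -0.46).

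Of the hormones and enlargement markers of white fat 2 of 22 were called higher (9.09%) and 3 lower (13.6%), against 10.3% and 6.93% of all genes. None was called without the library with muscle RNA. *Lep*, leptin, was at 352, 236 and 294 CPM at 30°C and 106, 78.002 and 155 CPM at 8°C (log2 fold change -1.38 ± 0.46 (SE), adjusted p = 0.0494; without that library adjusted p = 0.0727). *Cfd*, adipsin, was at 7478, 12200.0 and 17725 CPM at 30°C and 6236, 6712 and 6191 CPM at 8°C (adjusted p = 0.0333 and 0.0707). For both, every library at 8°C lay below every library at 30°C. *Adipoq*, adiponectin, was at 1998, 1897 and 2793 CPM at 30°C and 1214, 1529 and 1747 CPM at 8°C and was not called (log2 fold change -0.57 ± 0.32 (SE), adjusted p = 0.212).

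Of 25 collagens 4 rose (16%) and 1 fell (4%), against 10.3% and 6.93% of all genes, and 2 rose and none fell without the library with muscle RNA. Basement membrane collagen *Col4a2* was at 368, 252 and 398 CPM at 30°C and 710.0, 579.9 and 609 CPM at 8°C (log2 fold change 0.90 ± 0.20 (SE), adjusted p = 0.00892) and *Col27a1* at 13.96, 10.8 and 13.4 CPM at 30°C and 36.9, 29.9 and 36.6 CPM at 8°C (log2 fold change 1.44 ± 0.18 (SE), adjusted p = 0.000194), and the fibrillar collagens *Col1a1* and *Col3a1* were not called (-0.26 and -0.22). Of 42 genes of matrix remodelling and TGF-beta 2 rose (4.76%) and 3 fell (7.14%), with *Loxl1*, which crosslinks elastin, the one called without the library with muscle RNA (1.00). Of 21 progenitor markers *Cd34* was called higher (4.76%) and *Ly6a* and *Bmp4* lower (9.52%), near the shares of all genes. *Bmp4* was called without the library with muscle RNA as well, and *Dpp4* was not called (-0.65, adjusted p = 0.43).

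Few immune genes were called. Of 24 macrophage genes and 10 genes of MHC class II none was called in either direction (medians -0.18 and -0.46), and all 10 of the latter had a log2 fold change below 0. *Adgre1*, *Cd68* and *Csf1r*, which define macrophages, had log2 fold changes of -0.26, -0.22 and -0.40. Of 28 interferon-response genes *Irf7* and *Zbp1* fell (-0.73, adjusted p = 0.0401 and -0.71, adjusted p = 0.0386), 7.14% of the list against 6.93% of all genes, and neither was called without the library with muscle RNA, when *Igtp* was the 1 fall. Of 8 neutrophil and mast cell markers *S100a8* rose (adjusted p = 0.0293) and none did without that library. MHC class I antigen presentation, a list chosen after the values were seen, had 5 falls and no rise among 21 genes, and 6 falls without the library with muscle RNA. *Tap2*, a subunit of the pump that loads peptides, was at 313, 279.9 and 314 CPM at 30°C and 171, 168 and 157 CPM at 8°C (log2 fold change -0.87 ± 0.16 (SE), adjusted p = 0.00274), and *Tap1*, *Psmb8*, *H2-T23* and *H2-Q4* fell as well. *H2-K1* was at 1689, 1414 and 1698 CPM at 30°C and 1202, 1189 and 1149 CPM at 8°C: its adjusted p was 0.0357, and its log2 fold change of -0.44 lay inside the fold limit. Genes of the MHC have near-identical copies, so pairs that align to several of them may be missing from their counts. Lymph node markers were low in every library, at 11.9 to 45.8 CPM for the sum of 17. Of the 15 tested none was called with all libraries and 1, lower, without the library with muscle RNA.

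Epithelial genes fell. The median log2 fold change of the markers of mammary ducts was -0.95, and -0.21 without the library with muscle RNA. Of 26 transcription factors and junction genes of epithelium, chosen after the values were seen, 17 fell and none rose (median -1.19), and 7 fell without the library with muscle RNA. *Gata3*, a factor of luminal mammary cells, was at 217, 258 and 144 CPM at 30°C and 72.4, 79.2 and 50.9 CPM at 8°C (log2 fold change -1.61 ± 0.39 (SE), adjusted p = 0.0129), and *Ovol1*, of skin, at 3.22, 6.06 and 4.84 CPM at 30°C and 1.78, 1.89 and 1.03 CPM at 8°C (log2 fold change -1.60 ± 0.32 (SE), adjusted p = 0.00496). *Tgm1*, which crosslinks the horny layer, fell (-1.33, adjusted p = 0.0312). Of 17 mammary markers *Elf5*, *Epcam* and *Cldn3* were called lower with all libraries and none without, and *Krt14* and *Krt18* were not called (adjusted p = 0.21 and 0.0506). The mammary list summed to between 2887 and 5165 CPM at 30°C and between 2034 and 2219 CPM at 8°C, and how far a smaller share of epithelium carries these falls was not tested.

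Genes of the primary cilium, a sensory antenna that many cells carry while they are not dividing, fell by small steps. In a list of 55 chosen after the values were seen 13 fell and none rose (median -0.38), 9 fell without the library with muscle RNA, and in 32 every library at 8°C lay below every library at 30°C, against 1 the other way and 43.4% of all genes in one or the other direction. *Tmem231*, of the gate at the base of the cilium, was at 6.39, 7.396 and 5.31 CPM at 30°C and 2.601, 3.92 and 2.502 CPM at 8°C (log2 fold change -1.09 ± 0.22 (SE), adjusted p = 0.00465), and *Bbs1*, of the complex that brings receptors in, at 7.07, 6.86 and 7.81 CPM at 30°C and 4.31, 4.68 and 3.46 CPM at 8°C (log2 fold change -0.80 ± 0.20 (SE), adjusted p = 0.0158). *Kif3a*, a motor of the transport along it, was not called (-0.19, adjusted p = 0.261).

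Calls lost without the library with muscle RNA, in the fit that kept the *Jmjd1a* HY/HY libraries, were of different kinds. Of the 34 genes named here that lost theirs, 32 also did when 1 of the other 5 wild-type libraries was left out. Among the largest rises lost without it were *Mest*, an imprinted gene of expanding fat, at 9.06, 2.201 and 2.18 CPM at 30°C and 48.97, 17.4 and 31.3 CPM at 8°C (2.86, adjusted p = 0.0152; without it 2.52, adjusted p = 0.0598), and *Myl3*, *Adamts4*, *Gchfr* and *Fam83d*, whose log2 fold changes without it were 2.50, 2.75, 2.46 and 1.94. Their size was thus kept while the adjusted p passed the limit. Among the largest falls lost, *Acta1*, *Tnni2* and *Mylpf*, of the contractile apparatus of muscle, went from -5.91, -5.78 and -4.43 to -2.30, -1.36 and -0.89, and *Hrc*, of the muscle calcium store, from -3.39 to -0.74. *Nnat*, a proteolipid linked to fat cell growth, was at 735, 799 and 1223 CPM at 30°C and 14.6, 60.05 and 218 CPM at 8°C and kept its size without the library (-3.23 and -3.32), with adjusted p of 0.0335 and 0.062.

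For 327 of the 1707 genes that rose in wild-type mice the log2 fold change was lower in *Jmjd1a* HY/HY mice by the interaction term of the same fit (adjusted p under 0.05). For 19 of the 1147 genes that fell it was higher. A lower value can be a smaller rise or a fall, and a higher one a smaller fall or a rise. The same wild-type libraries enter both values, and the share over all genes tested is not given here. The counts are therefore not read as a result about these genes. The interaction was not repeated without the library with muscle RNA. *Idh3a*, among the 327 genes, rose by 2.67 on the log2 scale in wild-type scWAT and by 1.00 in that of *Jmjd1a* HY/HY mice (difference -1.67, adjusted p = 0.028). For *Ucp1* the difference was not called (-2.55, adjusted p = 0.321), nor was it for *Gas5* (0.35, adjusted p = 0.315) or *Rps21* (0.34, adjusted p = 0.555).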

How the data were processed

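Total RNA of scWAT was extracted with ISOGEN and made into TruSeq libraries, 1 per sample. The authors trimmed the reads with fastp and aligned them with STAR to the mm10 genome, and deposited, per library, counts of read pairs on 55401 genes, not normalized and not filtered, for both strands and for each strand. Pairs with several alignments were not assigned to a gene. The counts of the sense strand, which hold the larger part, were used. The lines that name no gene (unaligned, several places, outside genes, ambiguous), 58.2% to 61.9% of pairs in wild-type libraries, were left out.

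The paper names no test for these counts. They were fitted with edgeR 4.0.16 in R 4.3.3 (filterByExpr, TMM, quasi-likelihood, 1 mean for each of the 4 groups, no covariates, 8 residual degrees of freedom), with two-sided p-values adjusted by Benjamini and Hochberg over all genes kept. With 3 samples against 3 an exact permutation test cannot go below p = 0.1, so the fit over all genes was used. Calls needed an adjusted p under 0.05 together with a fold above 1.5 or below 0.67. Where no library of a group exceeded 3 counts, the fold was taken against 3 counts per library and covers counting error only. The fit was tested on simulated counts.

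The groups, gene lists, motifs and rules were chosen with earlier results of these data known. Named genes are, per list, up to 3 called in each direction with and without replicate 2 at 30°C and preset examples, plus the 10 largest rises and falls called in both fits (protein-coding, mean of at least 10 counts, groups not overlapping) and the 5 largest on each side that lost their call. Further genes were named after their values were seen, as were 9 added lists. Gene positions and promoters are from RefSeq tables of GRCm38.p6, which hold 11138 promoters of genes tested. The calls were repeated with DESeq2 1.42.0, library totals, other filters, other sets of libraries, both strands, a replicate block and each wild-type library left out. Replicate numbers were not used to pair the samples in the main fit. Some genes are not reported here.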

Additional observations from a re-analysis of the deposited data

Results flagged for a closer look

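Of the 255 genes named above, 54 had a cold response that differed between the genotypes by the interaction term of edgeR (adjusted p under 0.05 over all genes tested). The share of all genes tested that differed is not given here. The term was fitted with all 12 libraries and was not repeated without the library with muscle RNA. Values here are the log2 fold change at 8°C against 30°C in *Jmjd1a* HY/HY scWAT minus that in wild-type scWAT. For a gene that rose in wild-type mice a negative value means a smaller rise, or a fall, in *Jmjd1a* HY/HY mice. For a gene that fell a positive value means a smaller fall, or a rise. All 51 negative values were of genes that rose in wild-type mice, of which 143 are named, and the 3 positive ones were of genes that fell, of which 57 are named. The same wild-type libraries enter the wild-type fold change and this difference, so the 2 are not independent.

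Large differences were seen in genes with low levels at 30°C: *Fgf21* (-6.77), *Kng2* (-4.97), *Acot12* (-4.43), the muscle light chain *Myl3* (-4.37), *Otop1* (-3.68), *S100b* (-3.28) and *Fbp2* (-3.18). Of other thermogenic genes and secreted factors *Cox7a1* (-3.78), *Acot11* (-3.35), *Kcnk3* (-2.38), *Ppargc1a* (-2.19) and *Pm20d1* (-1.74) differed. In fat synthesis and glycerol use these were *Elovl6* (-2.97), *Me1* (-2.15), *Gk* (-2.41), *Gpd2* (-1.96) and *Agpat3* (-1.07), and in glucose use *Eno1* (-2.27), *Ldhb* (-2.04) and *Pygl* (-1.68).

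In fatty acid oxidation and coenzyme A synthesis the differences were those of *Acaa2* (-2.33), *Acadvl* (-1.63), *Abcd3* (-1.05), *Mcee* (-1.39) and *Pank1* (-2.30), and in pyruvate and acetyl-CoA oxidation those of *Suclg1* (-1.92), *Sucla2* (-1.44), *Idh3a* (-1.67), *Mpc1* (-1.76) and *Mpc2* (-1.91). Among mitochondrial ribosome, translation, assembly, cristae and cofactor genes *Mrps36* (-1.81), *Mrpl42* (-1.37), *Mrpl34* (-1.30), *Gfm1* (-1.03), *Cox10* (-1.29), *Apoo* (-1.65), *Micos10* (-1.09), *Bola3* (-1.44) and *Tmem14c* (-1.05) rose less in *Jmjd1a* HY/HY mice.

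The calcium exchanger gene *Letm1* (-1.61) and the mitochondrial antioxidants *Sod2* (-1.50), *Txnrd2* (-1.35) and *Txn2* (-1.06) did so as well. Among signalling, transcription and serine synthesis genes the values were -1.39 for *Gnas*, -0.95 for *Mtor*, -1.89 for *Deptor*, -1.96 for *Cebpb*, -1.80 for *Atf5*, -0.71 for *Gabpa*, -1.19 for *Egln1* and -1.12 for *Psph*. The 3 positive differences were of *Cdhr1* (3.0), *Cbs* (1.87) and *Slc25a29* (1.34), which fell in wild-type mice.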

How the results depend on the processing

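The 1707 rises and 1147 falls were counted again under the other settings. With library totals in place of TMM 1057 genes rose and 4144 fell, the setting that also moved the median of all genes. With the adjusted p limit alone 1799 fell, and with an adjusted p limit of 0.01 355 fell. Leaving out 1 wild-type library at a time gave 1356 to 1869 rises and 523 to 1531 falls, the fewest falls without replicate 3 at 8°C. Under the other settings (DESeq2 with 1915 and 1210 calls, no filter on low counts or a stricter one, wild-type libraries alone, counts of both strands, mitochondrial genes left out) both counts stayed within 1.5 times. The labels name no pairing, and replicate numbers were not used as one. Same-numbered deviations at 30°C and 8°C correlated at 0.139, -0.0437 and 0.131, and differently numbered ones at -0.182 to 0.0758. With 3 samples per temperature these values cannot decide whether same-numbered samples belong together. With a replicate block 1803 genes rose and 1422 fell.

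Of 255 named genes 200 were called, and 144 of these kept their direction and side of the limits under every setting. Of 3791 values of single genes under other settings 229 lost a call, 52 gained one and 16 changed sign. *Atp2a1*, whose fall rested on 1 library, was the called gene that did (0.0042 without replicate 2 at 30°C and 0.033 in 5 wild-type libraries, against -6.98 without replicate 1 at 30°C). The others were not called under either setting. Over the 6 libraries left out in turn *Cpt1a* ran from -0.243 to 0.00059, *Mcm6* from -0.770 to 0.122 and *Krt14* from -2.71 to 0.972, each positive without replicate 2 at 30°C, and in 5 wild-type libraries they were at 0.0201, 0.142 and 0.993. *Adrb3* ran from -0.465 to 0.0175 and *Pparg* from -0.386 to 0.0282, both positive without replicate 3 at 30°C. With library totals *Ebf2* (-0.140), *Lipe* (-0.0571), *Pcna* (-0.170), *Pdp1* (-0.0560), *Plin1* (-0.0461) and *Aldh6a1* (-0.0015) changed sign. Of 930 list medians 90 moved by more than the spread between libraries.

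Genes such as *Rec8*, *Cdhr1* or *Has3*, at under 1 CPM in most libraries at 8°C, rest on few read pairs, and genes below the read limit were not tested.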
